A study of Drosophila melanogaster with 2 samples.

Results

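Binding of Rx-eGFP was described at 35 genes of axon guidance and neural adhesion among the 13968 protein-coding genes on the chromosome arms of Drosophila melanogaster. The 35 genes were taken by name: ligands and receptors of the Slit, Netrin, Semaphorin, Ephrin and Wnt5 systems, the Robo regulator gene comm, the Dscam, Teneurin, immunoglobulin-domain and leucine-rich repeat adhesion proteins, 3 receptor tyrosine phosphatases, and the cytoplasmic proteins Dock and Trio. All 35 names matched a gene of the annotation. The rule used no measured value, but earlier results of these data were known when the genes were listed. The chromatin came from whole embryos, 0 to 24 h old, of the Rx-GFP strain, in which Rx, a paired-class homeodomain protein, is fused to eGFP. Chromatin bound by the fusion was pulled down with anti-GFP antibody, although another label field gives the antibody as Rx. There was 1 group with 2 biological replicates, with no untagged or untreated embryos among the samples. A possible control experiment is named in the labels and was not analysed here.

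Axons find their way by reading attractive and repulsive cues with receptors on the growth cone. In the Drosophila nerve cord, Netrins from the midline attract axons through Frazzled and repel them through Unc-5, while Slit repels axons through the Robo receptors and Commissureless keeps Robo off the axon surface until the midline has been crossed. Semaphorins act mainly through Plexins, Wnt5 repels axons that carry Derailed, and Dscam1 lets sister branches of a neuron avoid each other. Teneurins, Fasciclins and Neuroglian hold chosen cells and axons together. Rx belongs to the same class of homeodomain proteins as the vertebrate eye field factor of that name, and in the fly embryo it is made in parts of the brain and the head. Since whole embryos were used, a peak does not tell in which cells Rx-eGFP was bound, and a low peak in many cells cannot be told apart from a high peak in few.

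A gene was counted as bound when a peak summit lay in it or within 2 kb of it. The main list was the series-wide list thresholded on the irreproducible discovery rate (IDR), a measure of how well a peak's rank repeats between replicates, that its name calls conservative. It held 3250 peaks on the arms, against 2411 in the thresholded list of replicate 1, 2176 in that of replicate 2 and 3423 in a second series-wide list. Peak height is the authors' signal value, of unstated scale, and read depth is unknown because the lists hold no counts.

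Of the 35 guidance and adhesion genes, 16 were bound (45.7%, 95% Wilson interval 30.5 to 61.8%), against 26.5% of all protein-coding genes. The bound genes were the Slit gene sli and its receptor gene robo2, the Netrin genes NetA and NetB and their receptor genes fra and unc-5, the Semaphorin genes Sema1a and Sema5c, the Wnt5 receptor gene drl, the adhesion genes Dscam1, Ten-a, Fas2, Fas3 and Nrg, the phosphatase gene Ptp10D, and trio. The guidance genes are long, with a median of 37798 bp against 2164 bp for all protein-coding genes. When each was given the bound share of all genes in its length bin, among 20 equal-sized bins, 17.3 bound genes were expected and the ratio of bound to expected was 0.927. The count thus lay close to that of genes of the same length, and over the alternatives the ratio ranged from 0.886 to 1.13, on both sides of 1.

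In each replicate's own list the count was again near that given by length. In replicate 1, 13 of the 35 were bound (37.1%, Wilson interval 23.2 to 53.7%), against 21.3% of all genes, with 14.6 expected by length and a ratio of 0.890. In replicate 2, 14 were bound (40%, 25.6 to 56.4%), against 20% of all genes, with 13.7 expected and a ratio of 1.02. The genes bound in both replicates numbered 11 (31.4%), against 16.7% of all genes with no account of length, namely sli, NetA, NetB, fra, unc-5, Sema1a, Sema5c, drl, Ten-a, Fas3 and trio, and these 11 were bound in each of the 4 thresholded lists. A further 5 were bound in 1 replicate only: Sema2b and Ten-m in replicate 1, and Nrg, Ptp10D and trn in replicate 2. In contrast, robo2, Dscam1 and Fas2 were bound in the main list but in neither replicate's own list.

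**Figure D1:**
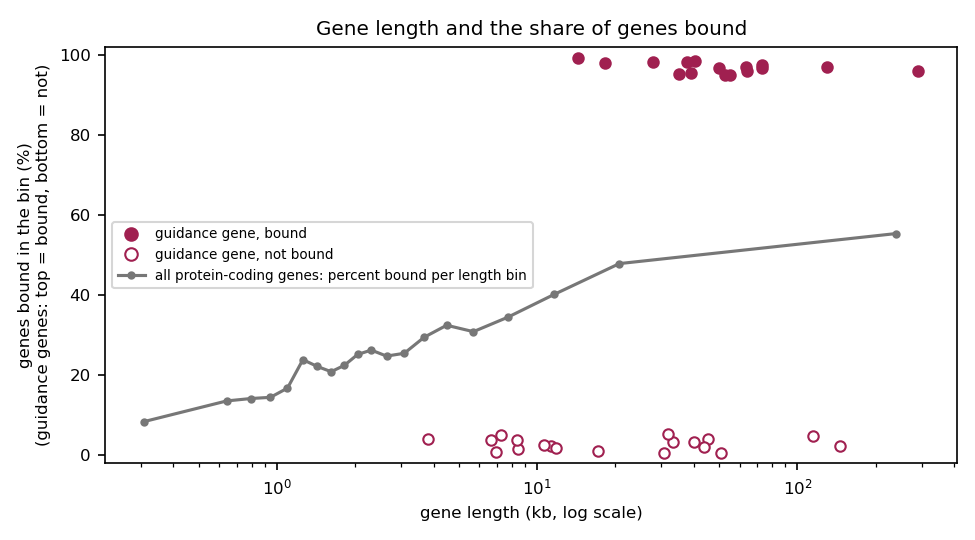
Guidance genes that were bound (filled dots, near the top) and not bound (open dots, near the bottom) are placed by gene length on a log axis in kb; their height within each band is spread only so that dots do not overlap. The grey line gives the percentage of all protein-coding genes bound in each of 20 length bins, and no guidance gene shorter than 14.3 kb was bound.

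Bound guidance genes were longer than unbound ones, though their lengths overlapped. The 16 bound genes had a median length of 51270 bp, and the 19 unbound genes 17207 bp. None of the 6 guidance genes under 10 kb was bound, against 22.9% of all genes under 10 kb. In the narrower length bins that hold these 6 genes, the bound share of all genes was 29.5 to 34.5%. From 10 to 20 kb, 2 of 6 were bound, against 41.7% of all genes, and from 20 to 40 kb, 4 of 7, against 50.7%. From 40 to 80 kb, 8 of 12 were bound, against 56.4%, and at 80 kb or more, 2 of 4, against 60.9%. The shortest bound gene was Sema5c, at 14320 bp, and the longest was Ten-a, at 291517 bp.

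The Netrin system had the most summits of any family, with 12 of the 38 summits of the guidance genes. All 4 of its genes were bound in the main list, where 2.14 were expected by length, and all 4 in each replicate. When a summit counted only for the gene with the nearest start, NetA kept 1 and unc-5 kept 2, while fra and NetB kept none. With 4 genes, these counts are a description and not a test. The Netrin receptor gene fra, the fly homolog of DCC (2R:12529053-12564184), held the highest main-list peak of any guidance gene; in replicate 1 alone, peaks of trio and Fas3 were higher. The fra peak lay in an intron at 2R:12543669-12543952 with a signal of 177, and its height was 80.7 in replicate 1 and 94.3 in replicate 2. Both other fra peaks, also intronic, were much lower, at 67.7 and 67.6. The repulsive Netrin receptor gene unc-5 (2R:15340472-15368300) had its highest peak 801 bp before its start, at 2R:15339529-15339812, with a signal of 153.5 and heights of 64.1 in replicate 1 and 84.2 in replicate 2. A second unc-5 peak, 100 bp before an inner start, had a signal of 91.2, and the intronic one further in, 90.4.

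The genes of the ligands, NetA (X:14604012-14653928) and NetB (X:14686038-14749376), are neighbours on X. The highest NetA peak was intronic, at X:14612353-14612636, with a signal of 122.4 and heights of 63.9 in replicate 1 and 56.8 in replicate 2. Of its other peaks, those at 92.4 and 53.6 were in introns, and the one at 66.6 lay 1246 bp beyond the 3′ end, 186 bp from a start of sbm. The highest NetB peak was in the 3′ UTR, at X:14689173-14689456, with a signal of 111.5 and heights of 61.3 in replicate 1 and 53.3 in replicate 2. It was the only summit of the 38 in a transcribed exon outside promoters. An intronic NetB peak had a signal of 86.5. Between the genes, a stretch of 32.1 kb held no summit.

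**Figure D2:**
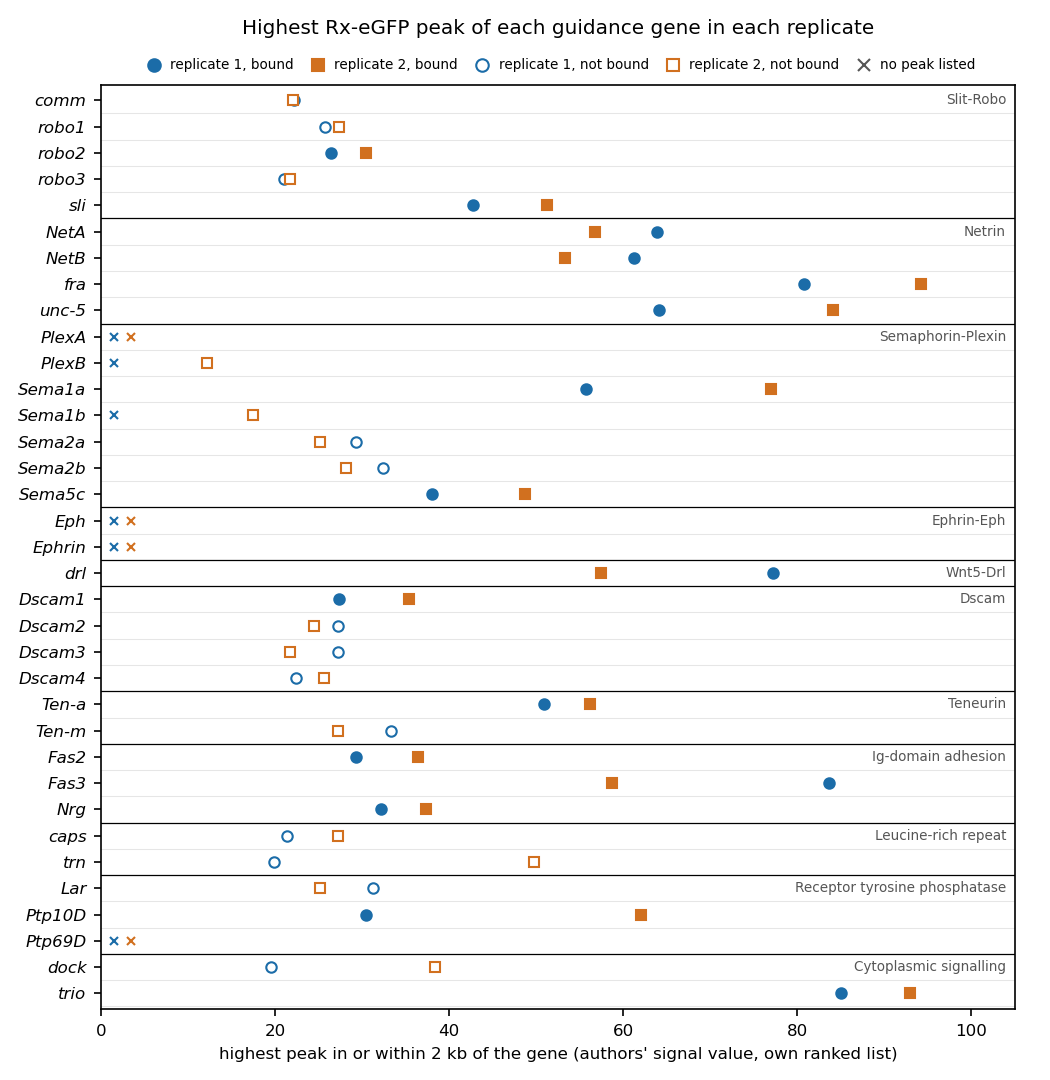
For each of the 35 guidance genes, grouped by family, the highest peak in or within 2 kb of the gene is plotted on the x axis as the authors' signal value in the ranked list of replicate 1 (circles) and replicate 2 (squares); filled marks are genes bound in the main list and crosses mark no listed peak. The genes fra and trio reach the highest values in replicate 2, at 94.3 and 93.0, and the unbound genes stay at or below 33.3 in replicate 1 and 49.8 in replicate 2.

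In the Slit system, the ligand gene and 1 of 3 receptor genes were bound, or 2 of 5 genes in all, against 2.35 expected by length. The gene sli (2R:15869495-15922118), which encodes the midline repellent, had an intronic peak at 2R:15887037-15887320 with a signal of 96.4 and heights of 42.8 in replicate 1 and 51.3 in replicate 2. The list of replicate 2 added promoter summits that were absent from the main list, with a signal of 24.9 at the start of sli and 47.8 just beyond its 3′ end. The receptor gene robo2 (2L:1380086-1420453) had a peak 45 bp from its start, at 2L:1420266-1420549, with a signal of 44.3 and heights of 26.4 in replicate 1 and 27.3 in replicate 2. This peak was absent from the second series-wide list as well as from both replicates' lists, so that the robo2 call rests on the main list alone. The receptor genes robo1 and robo3 and the gene comm, whose product removes Robo from the surface, were not bound.

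Of 7 Semaphorin and Plexin genes, Sema1a and Sema5c were bound, where 3.35 were expected by length. The transmembrane Semaphorin gene Sema1a (2L:8542147-8672041) had an intronic peak at 2L:8574994-8575277 with a signal of 132 and heights of 55.7 in replicate 1 and 77.0 in replicate 2. The list of replicate 2 added a promoter summit just before the start of Sema1a, with a signal of 39.6. Sema5c (3L:12067511-12081830), which encodes a Semaphorin with thrombospondin repeats, had peaks 657 and 181 bp before its start. The outer one, at 3L:12082345-12082628, had a signal of 77.3 and heights of 29.1 in replicate 1 and 48.7 in replicate 2, and the inner one a signal of 69.2 and heights of 38.1 and 28.5. Each replicate's list held a different one of them, the inner in replicate 1 and the outer in replicate 2. Neither Ephrin nor its receptor gene Eph was bound. The gene drl (2L:19190342-19208621), which encodes the Wnt5 receptor Derailed, had an intronic peak at 2L:19196709-19196992 with a signal of 131 and heights of 77.2 in replicate 1 and 57.4 in replicate 2.

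**Figure D3:**
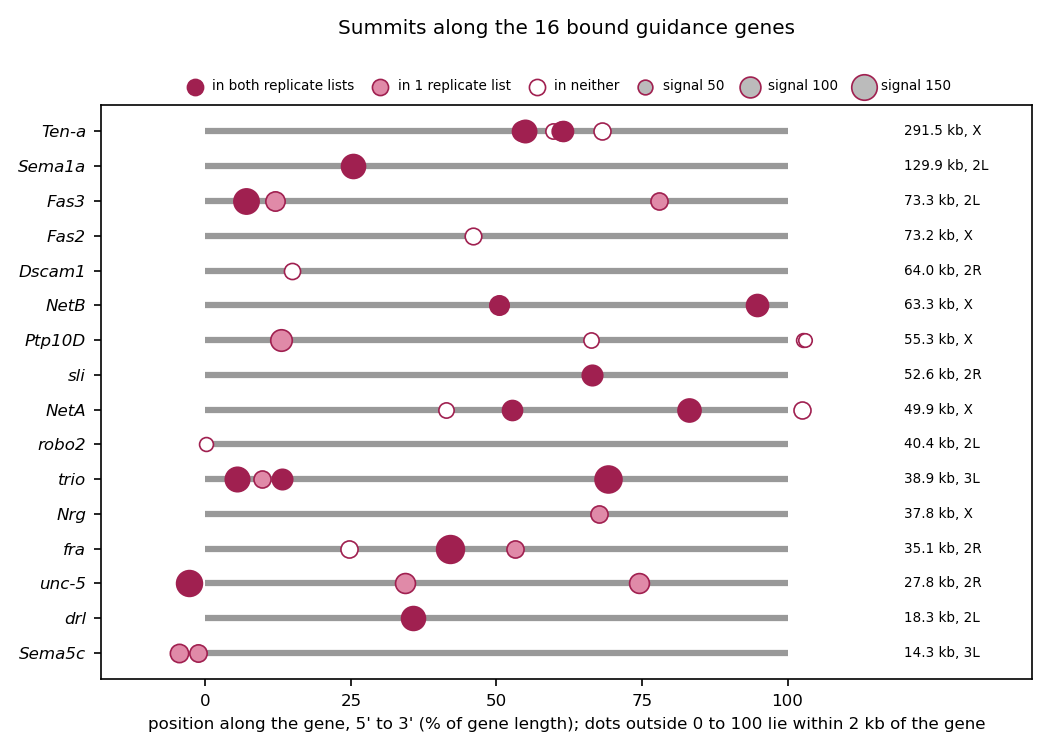
Each bar is a bound guidance gene drawn 5′ to 3′ at the same width, with position on the x axis as a percentage of its length; the text at the right gives length and arm. Dots are main-list summits, with an area set by the authors' signal value and filled by presence in the replicates' lists; the 4 summits of trio and the 6 of Ten-a lie mostly inside introns, and those of Sema5c lie before its start.

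Among the adhesion genes, 5 of 11 were bound, against 5.84 expected by length. Ten-a (X:12043698-12335214), a Teneurin that aligns synaptic partners, had 6 peaks, the most of any guidance gene. Its highest, at X:12203659-12203942, had its summit 3 bp from an inner start, with a signal of 115 and heights of 50.9 in replicate 1 and 56.2 in replicate 2. The other 5 were intronic, at 92.5, 91.9, 80.0, 66.4 and 53.6. For its length Ten-a was not dense in summits, with 2.03 per 100 kb, flanks included. Its paralog Ten-m, at 114.8 kb, had no main-list summit, but replicate 1 and the second series-wide list each held 1 in a coding exon of it, with signals of 33.3 and 45.9.

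All 3 genes grouped here as immunoglobulin-domain adhesion genes were bound, against 1.66 expected by length, with 1 bound in replicate 1 and 2 in replicate 2. The Dscam proteins also have immunoglobulin domains but were counted as a family of their own, with 1 of 4 genes bound, against 2.22 expected. The homophilic adhesion gene Fas3 (2L:18320102-18393441) had its highest peak in an intron at 2L:18325133-18325416, with a signal of 146 and heights of 83.7 in replicate 1 and 58.7 in replicate 2. Its peak at 85.9 had a height of 50.5 in replicate 2 and none listed in replicate 1, and the lowest of its peaks had a signal of 67.5. The L1-type gene Nrg (X:8517373-8555170) had an intronic peak at X:8542785-8543068 with a signal of 67.8 and heights of 28.3 in replicate 1 and 37.3 in replicate 2. Fas2 (X:4132887-4206093), the NCAM-like gene of axon bundling, had an intronic peak at X:4172264-4172547 with a signal of 63.4 and heights of 29.4 in replicate 1 and 36.5 in replicate 2. Of the 4 Dscam genes only Dscam1 (2R:7317924-7381899), the gene of self-avoidance, was bound, at 2R:7372214-7372497 in an intron. Its signal was 59.7 and its height 27.4 in both replicates. With 2.22 bound Dscam genes expected by length, the family lay below its expectation, over 4 genes.

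Of the receptor tyrosine phosphatase genes, Ptp10D (X:11622015-11677338) was bound and Lar and Ptp69D were not. The highest Ptp10D peak, in an intron at X:11629065-11629348, had a signal of 107. It had a height of 62.0 in replicate 2 and no overlapping ranked peak in replicate 1, whose thresholded list held no Ptp10D summit. Its remaining peaks were low, at 53.2, 43.7 and 41.7. The last of these lay beyond the 3′ end, 13 bp from a start of bif, and the one at 43.7 lay 190 bp from a start of Vlet; both overlapped the same peak in each replicate, with heights of 27.0 in replicate 1 and 26.5 in replicate 2. The gene trio (3L:995982-1034875), which encodes a guanine nucleotide exchange factor for Rac, had 4 peaks, and 3 of them were in both replicates' lists. The highest lay 233 bp before an inner start, at 3L:1007866-1008149, with a signal of 167 and heights of 73.5 in replicate 1 and 93.0 in replicate 2. A peak in an intron near the 5′ end, at 3L:1032635-1032918, had a signal of 137 and was higher in replicate 1, at 85.1, than in replicate 2, at 49.1. The intronic peaks beside it had signals of 95.7 and 67.0. The adaptor gene dock was not bound.

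Summits of guidance genes were mostly intronic. Of 38 summits, 27 lay in introns (71.1%, 95% Wilson interval 55.2 to 83.0%), against 37.0% of all 3250, and 8 lay at a promoter, within 500 bp of a protein-coding start (21.1%, 11.1 to 36.4%), against 42.7% of all. Another 2 were intergenic (5.26%, against 15.6%), and none lay in a coding exon, against 1.29%. The 38 were picked by their nearness to a gene, whereas only 2915 of the 3250 fell in protein-coding genes with their flanks. The intergenic shares are therefore not comparable, and the intron and promoter shares, as parts of the same totals, shift with them. The intervals of the intron and promoter shares do not reach the shares of the whole list, but summits of 1 gene are not independent, and intervals cover counting error only. The median distance to the nearest start of any gene was 5044 bp for summits of guidance genes and 812.5 bp for all summits. The guidance genes are long and intron-rich, and the part of their length in these shares was not tested. Nor were these shares compared with those of summits picked by the same rule for all protein-coding genes.

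Counted by gene, the promoter share was near that of all genes, with a wide interval. In the main list, 5 of 35 guidance genes (14.3%, 6.26 to 29.4%) had a summit within 500 bp of a start of their own, against 13.2% of all. The share was 8.57% in replicate 1, against 10.4% of all genes, and 14.3% in replicate 2, against 9.59%. The number of starts per gene was not taken into account. The 5 of the main list were trio, unc-5, Sema5c, Ten-a and robo2. The other 3 promoter summits belonged to the neighbours sbm, Vlet and bif. For 20 of the 38 summits the nearest start was that of the guidance gene, and when a summit counted only for the gene whose start was nearest, 14 guidance genes were bound, losing fra, NetB and Nrg and gaining comm. The highest main-list peak of these genes, in fra, was nearer to a start of CG33752, at 1878 bp, than to the start of fra, at 14758 bp.

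**Figure D4:**
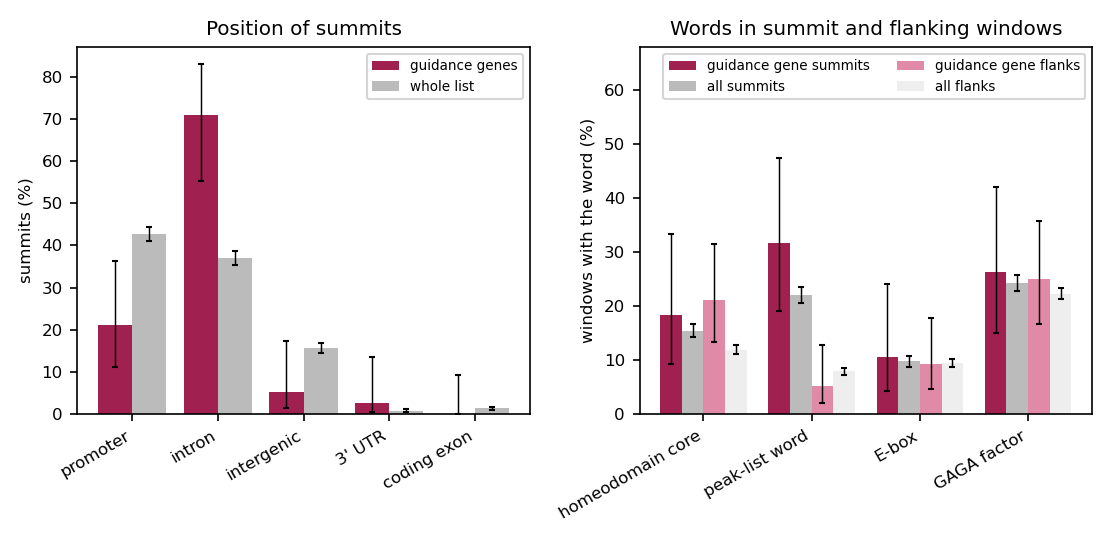
Left, the percentage of summits in each position class for the 38 summits of guidance genes and the 3250 of the whole list; right, the percentage of 201 bp windows that hold each word in summit and flanking windows of guidance genes and of the whole list. Bars show 95% Wilson intervals, and the intron share is 71.1% against 37.0%. The peak-list word is the one that earlier results of these data gave as most enriched in the whole list. It is in 31.6% of the summit windows of guidance genes and 5.26% of their flanking windows, against 22% and 7.89% over the whole list.

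Peaks at guidance genes were of middling height. Their median signal was 86.2, against 90.1 for the whole list, with a range of 41.7 to 177 where the list reached 1838. None of the 38 was in the highest 10% of the list, and 18 were in its upper 50% by signal. Of the 38 peaks, 16 were in both replicates' own lists (42.1%, 27.9 to 57.8%), against 50.6% of all peaks, 4 were in the list of replicate 1 alone (10.5%, against 15.2%), 7 in that of replicate 2 alone (18.4%, against 9.23%) and 11 in neither (28.9%, against 24.9%). Of the 38, 36 had a height in both ranked lists (94.7%, against 98.6% of all peaks). Among these, 35 lay within a factor of 2 (97.2%, against 96.3%). The main list was itself thresholded on how well peaks repeat between the replicates, so these shares do not test agreement. The ratio of replicate 2 to replicate 1 had a median of 1.00, against 0.9345 for all peaks, and a range of 0.488 to 1.86. The lowest ratio was that of the fra peak at 67.6, with a height of 46.8 in replicate 1 and 22.9 in replicate 2.

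**Figure D5:**
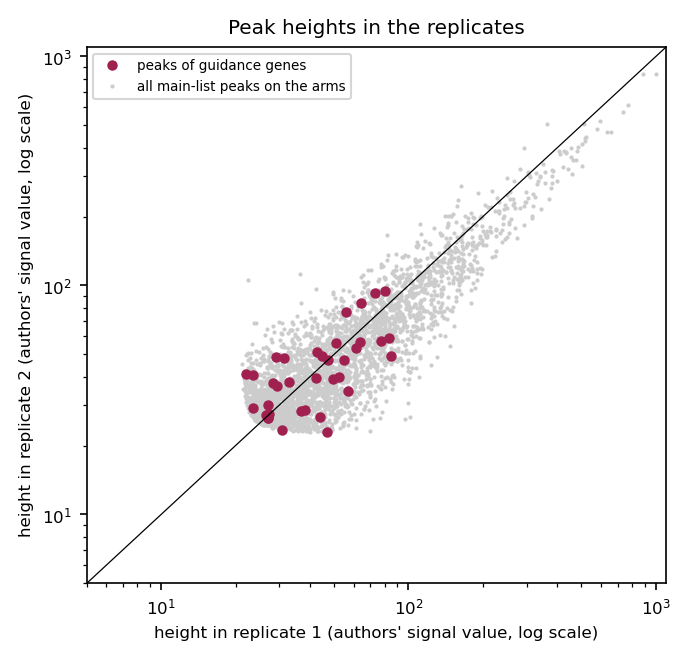
Height of each main-list peak in replicate 1 (x axis) and replicate 2 (y axis), as the authors' signal value on log axes, with the line of equal height; large dots are the 36 peaks of guidance genes with a height in both and grey dots all main-list peaks. The guidance gene peaks lie within the grey cloud, in its lower and middle part, at 22.1 to 85.1 in replicate 1.

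Where guidance genes held several peaks, they did so at the density of long genes. Of the 16 bound genes, 9 had 2 or more summits (56.2%, 33.2 to 76.9%), against 25% of all bound genes. Over their merged length of 1834 kb with flanks, guidance genes had 2.07 summits per 100 kb, against 2.80 for all protein-coding genes. Among genes of 20 kb or longer the densities were 2.11 for guidance genes and 2.09 for all.

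On X, every guidance gene was bound. All 6 of them, NetA, NetB, Fas2, Nrg, Ptp10D and Ten-a, were in the main list, with 18 of the 38 summits, where 3.33 were expected by length. In replicate 1, 3 of the 6 were bound, and in replicate 2, 5. Binding of X genes in general was at 26.8%, near the background. All 6 are between 37.8 and 291.5 kb long. The autosomal arms had 4 of 7 bound on 2L, against 3.596 expected by length, 4 of 8 on 2R, against 3.998, 2 of 9 on 3L, against 4.16, and 0 of 1 on 3R, against 0.554.

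Unbound genes fell into those with peaks below the threshold and those with none. In the ranked list behind the main list, which holds 135908 peaks on the arms, 14 of the 19 unbound genes had a peak, with a highest signal between 24.7 and 69.8 and a median of 44.8, against 44.3 to 177 and a median of 113 for the bound genes. The ranges overlap, since the threshold is set on IDR and not on height. That threshold also split the bound from the unbound genes, so the lower median of the unbound is no separate result. The share of all genes with a ranked peak was not counted, and ranked peaks lay a median of 642 bp apart. In the replicates' own ranked lists, the highest peak of the unbound genes that had one reached 19.5 to 33.3 in replicate 1 and 12.2 to 49.8 in replicate 2.

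The unbound genes that were as long as the bound ones numbered 10. Their highest ranked peak had a signal of 56.7 in Sema2b and 53.9 in Sema2a, which encode secreted Semaphorins, 50.5 in Ten-m, 49.8 in Lar, the phosphatase gene of motor axon targeting, and 45.0 in Dscam4. It was 44.5 in caps, a leucine-rich repeat adhesion gene, 43.1 in robo3, 43.0 in Dscam3 and 42.5 in Dscam2. The Plexin A gene PlexA had no peak in any of the 3 ranked lists. In the replicates, Sema2b reached 32.4 in replicate 1 and 28.2 in replicate 2, Ten-m 33.3 and 27.2, Lar 31.3 and 25.2, and Sema2a 29.4 and 25.2, in the same order. In each of these genes the highest peak of replicate 1 lay at another place than that of replicate 2, so the paired heights are not of 1 peak. These heights were well below those of fra and trio and near those of robo2 and Dscam1.

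Of the 9 shorter unbound genes, trn, a leucine-rich repeat adhesion gene of 3807 bp, differed between the replicates. Its highest peak in replicate 2, in a coding exon, reached 49.8 and was in the second series-wide list with a signal of 69.8. In replicate 1 the highest trn peak, at another place in the gene, reached 19.9. The adaptor gene dock had a promoter peak with a signal of 59.8 that was in the second series-wide list alone. The remaining genes with a ranked peak, robo1, comm and Sema1b, had signals from 24.7 to 42.6.

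The 5 unbound genes with no peak in the series-wide ranked list were Ptp69D and the 4 guidance genes of chromosome 4, PlexA, PlexB, Eph and Ephrin, of which PlexB had a peak of 12.2 in the ranked list of replicate 2. On chromosome 4, 1 of 80 protein-coding genes was bound (1.25%), and the series-wide ranked list held 50 peaks there, the list of replicate 1 held 43 and that of replicate 2 held 75. By length, 1.63 of the 4 would have been bound. Ptp69D lay in a stretch of 55.9 kb with no ranked peak, where the median spacing of ranked peaks was 642 bp. In replicate 1 the stretch was 57.1 kb and in replicate 2 it was 40.6 kb. Such stretches over 50 kb numbered 58 in the whole list, so for these 5 genes an absence of peaks is also an absence of listed signal in the surrounding region, and its cause was not tested.

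The 2 kb limit decided the call of Sema5c, which alone was lost with no flank, and 10 kb on each side would add 5 genes. Just outside it, the nearest summit was 2450 bp from Lar, 3738 bp from robo1, 4505 bp from Ten-m, 4995 bp from dock and 7198 bp from Sema1b. Just inside it and outside the gene were the summits of Sema5c at 181 and 657 bp, unc-5 at 801 bp, NetA at 1246 bp and Ptp10D at 1441 and 1645 bp.

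The sequences under the peaks were searched on both strands within 100 bp of each summit, in windows of 201 bp. The word ACAGTG, which earlier results of these data gave as the most enriched 6-base word of the whole peak list, was in 12 of 38 windows of guidance genes (31.6%, 95% Wilson interval 19.1 to 47.5%), against 22% of all summit windows. It was in 4 of 76 flanking windows of guidance genes, centred 1000 bp to each side (5.26%, 2.07 to 12.8%), against 7.89% of all flanking windows. No factor is assigned to this word here. The window of the highest fra peak holds the word and that of the highest unc-5 peak does not, and neither is printed here. Of the other 8 among the 10 highest summits by signal that were in both replicates' lists, 2 of trio and 1 each of Fas3, Sema1a, drl, NetA, Ten-a and NetB, the 5 that hold it are printed because the word recurs in genes of different families. Sequence is from the plus strand of the Release 6 genome (dm6) in RefSeq, 5′ to 3′, and capitals mark ACAGTG or its reverse complement CACTGT.
Sema1a 2L:8575036-8575236: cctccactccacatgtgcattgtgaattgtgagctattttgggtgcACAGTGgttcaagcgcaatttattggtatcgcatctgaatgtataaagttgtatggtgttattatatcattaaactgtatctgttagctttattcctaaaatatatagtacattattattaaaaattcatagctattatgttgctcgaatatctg
drl 2L:19196751-19196951: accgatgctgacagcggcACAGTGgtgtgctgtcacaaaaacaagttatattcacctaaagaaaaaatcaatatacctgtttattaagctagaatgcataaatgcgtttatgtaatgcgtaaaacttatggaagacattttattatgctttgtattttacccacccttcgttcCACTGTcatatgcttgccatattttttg
NetA X:14612395-14612595: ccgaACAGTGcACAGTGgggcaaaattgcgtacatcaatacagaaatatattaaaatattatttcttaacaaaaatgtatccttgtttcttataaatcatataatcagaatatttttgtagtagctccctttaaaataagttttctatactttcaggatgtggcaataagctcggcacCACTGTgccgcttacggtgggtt
NetB X:14689215-14689415: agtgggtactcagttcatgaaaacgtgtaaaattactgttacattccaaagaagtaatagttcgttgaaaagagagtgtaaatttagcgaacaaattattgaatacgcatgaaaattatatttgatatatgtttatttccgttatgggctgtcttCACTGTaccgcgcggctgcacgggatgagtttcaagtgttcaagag
Ten-a X:12203701-12203901: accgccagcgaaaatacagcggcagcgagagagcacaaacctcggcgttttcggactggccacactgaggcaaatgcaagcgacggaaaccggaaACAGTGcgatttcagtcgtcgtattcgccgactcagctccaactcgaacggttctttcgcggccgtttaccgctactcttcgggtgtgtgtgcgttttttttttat

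In NetA the word occurs 3 times, in 2 copies 1 base apart near the left end of the window and on the other strand near the right end, and in drl 2 times, on opposite strands. The windows of Sema1a, NetB and Ten-a hold it once each. The Ten-a window covers an inner transcription start and has a GC content of 53.7%, against a median of 35.6% for summits of guidance genes and 36.3% for all summits. The windows of the 2 highest trio peaks and of the highest Fas3 peak hold none.

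The word TAATTA, the core recognised by many homeodomain proteins, had similar shares under and beside the peaks of guidance genes, with wide intervals. Over the whole list it was more common under the peaks than beside them. Whether guidance genes differ from the list in this was not tested, and their few windows cannot show it. TAATTA was in 7 of 38 summit windows of guidance genes (18.4%, 9.22 to 33.4%), against 15.4% of all summit windows. In flanking windows it was in 16 of 76 of guidance genes (21.1%, 13.4 to 31.5%), against 11.9% of all. Flanking windows were richer in GC, with medians of 41.5% for guidance genes and 42.8% for all, against 35.6% and 36.3% at summits. The part of base content in these shares was not tested. The 7 windows were 4 of Ten-a and 1 each of Dscam1, unc-5 and Fas3. All were intronic, 7 of 27 (25.9%, 13.2 to 44.7%), against 16.1% of all intronic summits. Within 50 bp of the summit the shares were 15.8% for guidance genes and 8.68% for all. Neither the windows of the highest fra and unc-5 peaks nor the other 8 of these 10 hold TAATTA. Windows of Ten-a and Fas3 that do are printed here because a homeodomain core lies under a peak there. Capitals mark TAATTA, the paired-class P3 dimer (TAAT and ATTA with 3 bases between them), and ACAGTG or CACTGT.
Ten-a X:12202262-12202462: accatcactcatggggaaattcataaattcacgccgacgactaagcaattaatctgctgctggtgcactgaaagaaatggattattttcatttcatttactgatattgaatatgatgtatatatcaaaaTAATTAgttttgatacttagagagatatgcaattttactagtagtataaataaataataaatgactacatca
Ten-a X:12222900-12223100: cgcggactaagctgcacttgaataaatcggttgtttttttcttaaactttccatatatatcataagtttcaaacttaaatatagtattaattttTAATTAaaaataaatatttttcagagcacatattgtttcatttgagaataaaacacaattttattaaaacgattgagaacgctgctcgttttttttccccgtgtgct
Fas3 2L:18328800-18329000: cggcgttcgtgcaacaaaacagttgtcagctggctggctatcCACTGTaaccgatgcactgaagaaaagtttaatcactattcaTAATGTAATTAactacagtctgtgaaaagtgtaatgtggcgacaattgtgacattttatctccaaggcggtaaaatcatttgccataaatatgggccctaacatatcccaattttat

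The Fas3 window was the only one of the 38 with the P3 dimer, a spacing at which paired-class homeodomain dimers bind. It also held CACTGT, and it belongs to the Fas3 peak with a signal of 85.9, which had no overlapping ranked peak in replicate 1. The share of the P3 dimer, 1 in 38 (2.63%), stood beside 2.71% of all summit windows. The P2 dimer, with 2 bases between, was in none of the 38, against 2.15% of all. Of the other words, the E-box CAGCTG was in 10.5%, against 9.75% of all summit windows, and GAGAG, recognised by GAGA factor, was in 26.3%, against 24.2%. The word TATCGATA, bound by Dref at promoters, was in none, against 2.68%, and the CTCF-like word AGGNGGC was in 2.63%, against 6.06%. The control word AATATT, which tracks AT content, was in 34.2%, against 27.0%, and in 14.5% of the flanking windows of guidance genes, against 15.6% of all flanking windows. A match shows only that these letters lie in the window.

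A wider set of 133 other guidance and adhesion genes was bound at a similar rate. Of these, 55 were bound (41.4%), against 61.8 expected by length, a ratio of 0.890, and 40 were bound in replicate 1 and 39 in replicate 2. The highest peaks were at a promoter by Mtl, a Rac-like GTPase gene, with a signal of 907, at the promoter of the phosphatase gene Ptp4E, with 383, and in introns of babos, with 275, of the kinase gene Src64B, with 236, and of beat-Ib, with 215. The Mtl summit was nearer to a start of CG5611, and the beat-Ib summit to one of CG13244. All 4 of the Wnt5 group, Wnt5, Drl-2, dnt and Src64B, were bound, against 1.81 expected, as was drl. Of this group, 3 were bound in replicate 1, where dnt was not, and 4 in replicate 2. The peaks of Wnt5 and Drl-2 lay outside those genes, and that of Drl-2 was nearer to a start of CG13324. The 4 receptor phosphatase genes Ptp4E, Ptp99A, Ptp36E and Ptp52F were bound, against 1.70 expected, with 3 bound in replicate 1 and 2 in replicate 2. Each had a summit at a promoter of its own, which none of Lar, Ptp10D and Ptp69D had, but the Ptp52F summit was nearer to a start of Lis-1 and the gene was bound in neither replicate's list.

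Further members of the Slit pathway were bound at 4 of 6, against 2.96 expected by length. Their highest signals were 180 by comm3, at a promoter nearer to a start of Phs, and 173 at the promoter of RhoGAP93B. The glypican gene dlp had a signal of 151, at a summit nearer to a start of CG43121. Signalling genes were bound at 8 of 15, against 5.65 expected, with signals of 128.5 at the actin regulator gene ena and 125.5 by Rac1. The Rac1 peak lay outside the gene, in a 3′ UTR, and was nearer to a start of scf. The large families of cell recognition proteins had counts below those given by length, with 6 of 31 Dpr and DIP genes, against 14.9 expected, 9 of 22 Beat and Side genes, against 11.4, and 1 of 5 cadherin genes, against 2.47. These differences were not tested, and genes of a family that lie side by side can share a summit.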

How the data were processed

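Chromatin immunoprecipitation of Rx-eGFP was sequenced in 2 biological replicates of whole embryos, and per the labels chromatin was sonicated to 200 to 800 bp and placed on dm6. The sources used here do not name the aligner or the peak caller. The authors deposited peak lists, of which 7 were used, 4 of them thresholded on IDR and the others longer ranked lists; 1 further ranked list was not used. The deposited signal is the authors' peak height, of unstated scale, and served to order peaks inside a list. The deposited score is the authors' scaled IDR, at least 830 in the main list. The authors' −log10 global IDR in the ranked lists was read but supports no result here.

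Summits were set on Ensembl release 115 genes (BDGP6.54), in Python 3.11.15 with pandas 2.3.3 and statsmodels 0.14.6. A promoter was 500 bp to each side of a start. Expected counts sum the bound shares of all protein-coding genes over 20 length bins. Flanking windows that overlapped a main-list peak were left out. A replicate's height is that of the highest overlapping peak in its own ranked list. The scripts were checked on made-up genes with known answers.

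The genes, families, wider list and words were chosen with earlier results of these data known, so no test was run and no p-value is given. Every guidance gene is accounted for, and bound ones are named with their highest peak. Of the wider list, the 5 bound genes with the highest peak and some further bound genes are named. Depth is unknown, and intervals cover counting error only. The labels do not say how embryos were pooled. Alternatives were the second series-wide list, each replicate alone, the upper 50% of peaks by signal, other flanks, promoters, windows and bins, and nearest starts.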

Additional observations from a re-analysis of the deposited data

How the results depend on the processing

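The number of guidance genes bound stayed between 11 and 21 under the alternatives run, and the ratio to the number expected by length between 0.886 and 1.13, on both sides of 1. Leaving out a replicate, by using the other's own list, gave 13 to 14 guidance genes bound, a ratio of 0.890 to 1.02, 39 to 40 bound genes of the wider list, 22 to 31 summits and 3 to 5 guidance genes with a promoter summit. With the list of replicate 1 alone there were 22 summits, a drop of over 1.5 times from 38, and 3 guidance genes with a promoter summit. With the 50% of peaks with the highest signal there were 18 summits, 3 guidance genes with a promoter summit and 30 bound genes of the wider list, by construction from fewer peaks. Without a flank, 36 genes of the wider list were bound, against 55. Of 50 alternative values, 44 stayed within 1.5 times the main count or its spread. The share of summits at promoters ranged from 13.6 to 26.3%, and that of windows with TAATTA from 13.6% to 31.6%, the highest in windows of 200 bp to each side.

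No paired analysis was possible because there was 1 group only. The lists hold no counts, so depth, and with it the sensitivity for low peaks, is unknown, and regions without ranked peaks, such as those around Ptp69D and on chromosome 4, cannot be called free of binding. With 2 replicates and no untagged embryos, the background of the antibody at these genes was not measured here.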

Other observations

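The word CACTGA was added after the summit sequences had been read. It was in 9 of 38 summit windows of guidance genes (23.7%, 95% Wilson interval 13.0 to 39.2%), against 17.3% of all summit windows, and in 6.58% of the flanking windows of guidance genes, against 8.38% of all flanking windows. In the gaps between neighbouring guidance genes, 1 summit lay in the 83.5 kb between robo3 and robo2 and 1 in the 111 kb between trn and caps. None lay in the 68.4 kb between Sema2b and Sema2a or in the 30.6 kb between Ephrin and Eph. The 378 kb between drl and Lar held 21 summits. The window of the robo2 promoter peak had the highest GC content of the 38, at 57.2%, and the Ten-a window at X:12222858-12223141 had the lowest, at 27.4%. A Ptp10D peak in the thresholded list of replicate 2, at X:11622962-11623217, lay in an intron near the 5′ end with a signal of 56.8 and was absent from the main list.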
